A study of Mus musculus with 18 samples.

Results

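The comparison described here sets WT FDM cells 18 h after IL-3 withdrawal against WT FDM cells 6 h after it, with the 6 h and 18 h samples paired by clone. Its members are the probes detected, at a detection p-value under 0.01, on at least 1 of these 6 arrays, which were 18629 of the 46632 probes read on each array. Of them 14323 carried 1 gene symbol, and they stood for 9989 of the 11195 named genes that could be tested in the series of 18 arrays. Values were not used to choose members beyond that detection limit, and genes that rose and genes that fell were both kept.

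FDM (factor dependent myeloid) cells are mouse myeloid lines that were made by HoxB8 transformation and kept in IL-3. The WT cells compared here came as 3 clones, each with intact p53 as far as the labels go, deprived of IL-3 for 6 h or for 18 h, and the same clones growing in IL-3 served as the 0 h samples. Clones of p53-/- cells, also 3, were taken at the same times and served only for the comparison at the end. All cells of both genotypes carried the HoxB8 transformation, a line is 1 clone each, and the age and strain of the donor mice are not given in the sources used here.

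IL-3 acts through a receptor of an alpha chain and a shared beta chain, which drive JAK2 and STAT5, Ras and ERK, and PI3K and AKT. In cells that depend on it, withdrawal is known to stop proliferation in G1 and then to start apoptosis under the control of the BCL-2 family. The genes needed for S phase are switched on by E2F factors once the RB family lets go of them, and the genes needed for mitosis follow later in the cycle through the MuvB complex with B-MYB and FOXM1.

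Per array, the median intensity of the 6 WT samples was 127.6 to 162.4 and 31.47 to 32.59% of probes were detected. The labels call the cells myeloid progenitors. Ctsg, Prtn3, Cebpa, Spi1 and Myb, which are active in early myeloid cells, were detected on all 6 arrays, Kit, the receptor for stem cell factor, was undetected on all 6, and Mpo and Elane, which encode granule proteins, were detected on 3 of 6 each. Of the lymphoid markers measured, 2 of 6 were detected on any of these arrays, and neither list of non-myeloid cells (lymphoid, or fibroblast and endothelial) held a gene that passed the test. Values are given below as the normalized log2 intensity of clones 1, 2 and 3 in that order, called the level. Changes are given as the fitted log2 change ± its standard error (SE) in the model described below. The variance behind that SE was estimated with array weights over all arrays of both genotypes and moderated across probes. The SE is therefore not the spread between the 3 WT clones, which is read from the levels. Because whole cultures were measured, fewer cells of a type and less RNA per cell cannot be told apart.

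A change was called when its p-value, adjusted over all 21413 probes detected on at least 1 of the 18 arrays, was 0.1 or lower and its B statistic was positive (limma with clone as a block and array weights). The late phase of withdrawal changed many transcripts. There were 1159 probes called higher at 18 h (5.41% of those tested) and 1401 called lower (6.54%), 12% in all, and the falls were the larger of the changes. The median log2 change was 0.92 for the probes called higher and -1.20 for those called lower, 970 of the falls but 419 of the rises exceeded 1 on the log2 scale, and 149 falls but 4 rises exceeded 2. All 3 clones moved the same way for 1146 of the rises and 1399 of the falls, against 52.7% of all probes tested. The levels at 6 h and 18 h did not overlap for 911 of the rises and 1307 of the falls, against 31.0% of all probes. Probes with no gene name made up 30.6% of the rises, 13.6% of the falls and 24% of the probes tested.

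These counts rest on the arrays unequally. Array weights ran from 0.449 for WT 18 h replicate 3 to 4.19 for WT 6 h replicate 3 among the 6 arrays, and without weights 230 probes were called higher and 440 lower. Leaving out WT 18 h replicate 2, the most heavily weighted 18 h array, left 175 and 507. Without WT 18 h replicate 1 the counts were 420 and 763, without WT 6 h replicate 2 they were 492 and 935, and without WT 6 h replicate 3 they were 732 and 1020. Of the 110 genes named below as called, 40 were called in every refit listed in the closing part that tested them, and all 110 kept their direction in those refits. The call was lost for 58 of them without WT 18 h replicate 2, for 34 without WT 18 h replicate 1 and for 56 without array weights. The size of a change depended on the background correction. With the authors' processed values the changes of the 110 genes were a median of 52.0% of those given below, and with no background correction 73.4%. The exact permutation test of a single value with 3 samples against 3, taken as unpaired, cannot go below p = 0.1. One that keeps the pairs by clone has a higher floor, so the p-values given are those of the model.

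**Figure D1:**
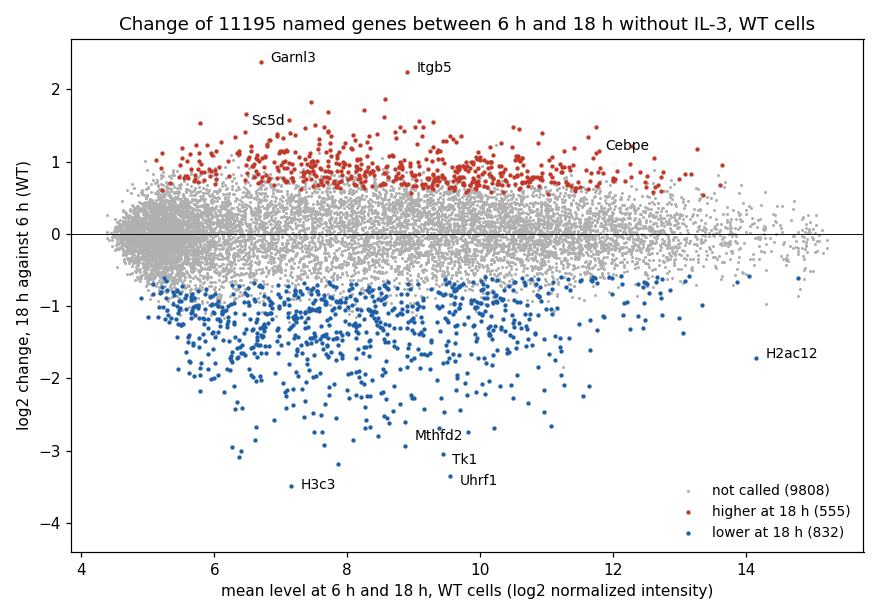
Log2 change of each of the 11195 named genes between 6 h and 18 h (vertical axis) against its mean level over the 6 WT arrays (horizontal axis, log2 normalized intensity). Points stand for genes by their brightest probe, red where called higher at 18 h (555 genes, 4.96%), blue where called lower (832 genes, 7.43%) and grey where not called, and the falls reach further from 0 than the rises.

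Genes of the DNA replication machinery fell together. Of 41 measured genes on the list, 33 were called lower and 0 higher at 18 h, with a median log2 change of -1.64, where 7.43% of all named genes were called lower (12.4% either way) and the median of all probes tested was 0.032. The median was -1.62, -1.74 and -1.44 in the 3 clones, and with the authors' processed values it was -0.88, with 33 again called lower. With 1 array left out at a time, 29 to 33 of the genes were called lower. The promoters of some of these genes hold the letters to which E2F factors are known to bind, and 4 are shown here because their genes are among those that fell. They come from RefSeq (GRCm38.p6), are written 5′ to 3′ along the strand of the gene, and have the matched letters in capitals. The windows lie at chr17:56304103-56304160 on the plus strand for Uhrf1, chr5:138172016-138172073 on the minus strand for Mcm7, chr8:75109331-75109388 on the plus strand for Mcm5 and chr11:98907988-98908045 on the plus strand for Cdc6.
Uhrf1: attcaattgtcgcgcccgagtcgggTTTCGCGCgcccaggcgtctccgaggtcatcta
Mcm7: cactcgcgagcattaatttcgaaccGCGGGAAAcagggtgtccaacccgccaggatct
Mcm5: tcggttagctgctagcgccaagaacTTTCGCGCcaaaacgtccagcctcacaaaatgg
Cdc6: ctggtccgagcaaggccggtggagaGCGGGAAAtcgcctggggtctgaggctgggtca
The letters searched were TTTCCCGC, TTTCGCGC, TTTGCCGC and TTTGGCGC on both strands, from 250 bases before to 50 after the annotated start. They were found for 10 of the 35 replication genes with a promoter in the table (28.6%), for 4.55% of all tested genes with one and in 2.26% of the 32851 promoter windows. Among the replication genes called lower, 8 of 30 had a match. A match is a description of the sequence only, and in Mcm5 the letters on the other strand overlap the ones shown.

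Uhrf1, which recruits the maintenance methyltransferase to newly copied DNA, gave the smallest p of the list. Its level was 11.39, 11.17 and 11.03 in the 3 clones at 6 h and 8.45, 7.59 and 7.69 at 18 h. Every 18 h value lay far below every 6 h value, and the fall was 3.35 ± 0.14 on the log2 scale (10.2-fold, adjusted p = 7.29e-09). Thymidine kinase Tk1, which salvages thymidine for DNA synthesis, went from 11.11, 10.93 and 10.85 to 8.46, 7.78 and 7.53. Its groups were as far apart, with a fall of 3.05 ± 0.15 (adjusted p = 2.04e-08) that its other probe shared. Cdc7, the kinase that fires replication origins, had levels of 9.86, 9.64 and 9.80 at 6 h and 7.71, 7.03 and 7.26 at 18 h, a fall of 2.51 ± 0.14. Mcm7, a subunit of the replicative helicase, went from 11.70, 11.28 and 11.06 to 9.58, 9.15 and 9.03 and fell by 2.11 ± 0.12. Clone 1 was the highest of the 3 at both times for Mcm7, and the groups of neither gene overlapped. Another helicase subunit, Mcm5, fell by 2.25 ± 0.14, the helicase loader Cdc6 by 1.64 ± 0.15, and Rrm2, the regulated subunit of ribonucleotide reductase, by 2.44 ± 0.15. The 8 members that were not called had changes of -0.51 (Mcm6), -0.52 (Gins3), -0.61 (Gins4), -0.37 (Pola2), -0.36 (Pole), -0.40 (Ung), -0.16 (Rnaseh2a) and 0.54 (Rfc2) on their brightest probes, and another probe of Mcm6 was called lower, at -2.34. Rfc2, a subunit of the clamp loader, was thus the only one of the 41 with a positive change.

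In the first 6 h without IL-3 these genes had moved less. Uhrf1 changed by -0.46 ± 0.14 and Tk1 by -0.30 ± 0.14 between 0 h and 6 h, and neither was called. The list as a whole had a median of -0.32 with 5 genes called lower in that interval, in which 4.31% of named genes were called higher and 5.39% lower, or 9.69%. The early and the late comparison share the 6 h arrays, so these values are given side by side and nothing is read from their likeness.

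**Figure D2:**
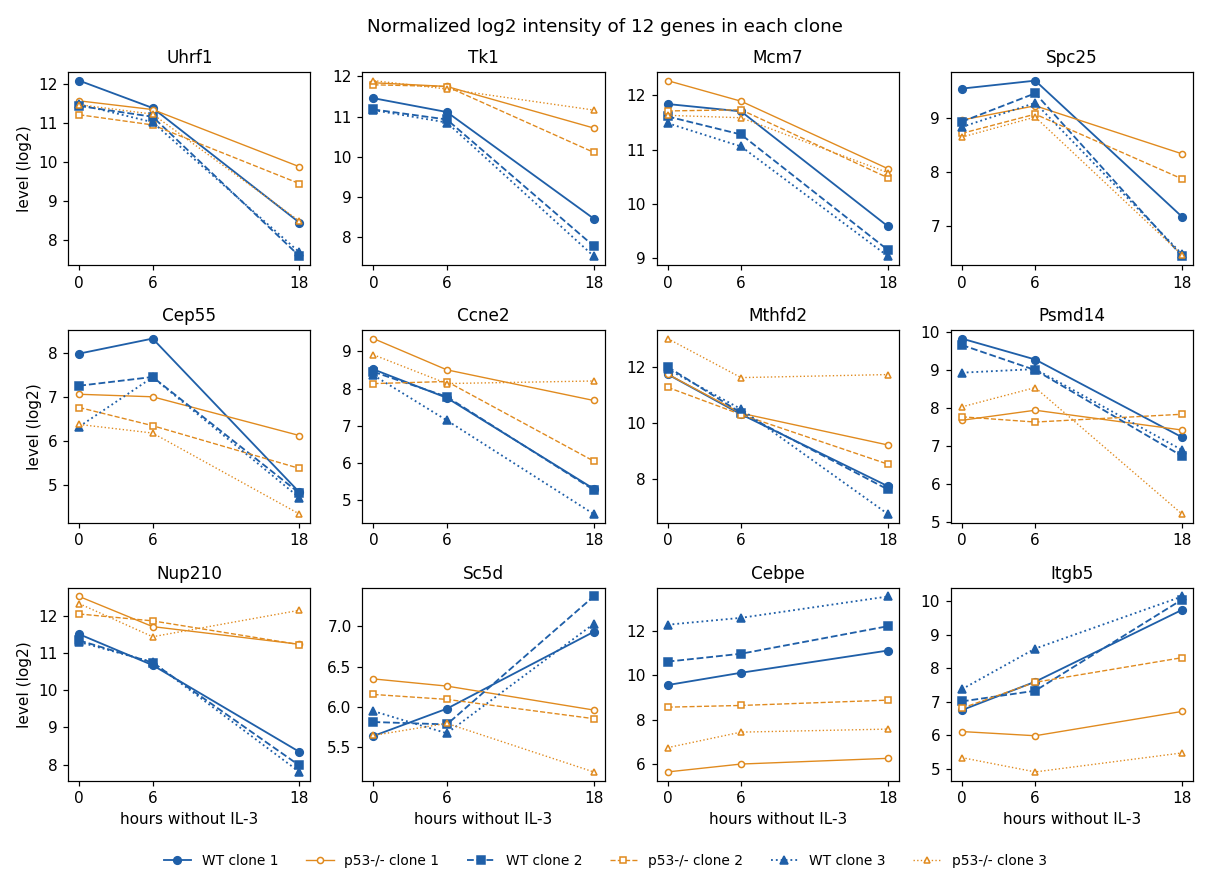
Levels (normalized log2 intensity, vertical axes, each panel with its own scale) of 12 genes at 0, 6 and 18 h without IL-3 (horizontal axes), 1 line per clone, blue for WT and orange for p53-/-. For Uhrf1, Tk1, Mcm7, Spc25, Cep55, Ccne2, Mthfd2, Psmd14 and Nup210 the 3 WT values at 18 h lie below the 3 at 6 h, and for Sc5d and Itgb5 they lie above, while for Cebpe every WT clone rose but the clones differ so much that the groups overlap.

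Replication-dependent histone genes, whose mRNA is made in S phase, showed the same direction. This list was drawn up from the gene names after values had been seen. Of 45 measured, 32 were called lower and 0 higher, with a median of -1.66 (-1.03 with the authors' processed values), where 7.43% of all named genes were called lower. H3c3, a histone H3 gene, fell from 9.38, 9.14 and 8.09 to 5.76, 5.52 and 5.03, by 3.48 ± 0.23 (adjusted p = 1.83e-07). At 18 h it was detected in 1 clone of 3. The histone H2A gene H2ac12 went from 15.24, 14.81 and 14.97 to 14.15, 13.14 and 12.64, a fall of 1.71 ± 0.26 without overlap. Histone genes are near-copies of each other, and a probe for one can bind the mRNA of several, so the gene names within this family are uncertain. With WT 18 h replicate 2 left out, 25 of the 45 were called lower.

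Genes of G2 and mitosis also fell. Of 37 measured, 28 were called lower and 0 higher, all 37 changes were negative, and the median was -1.37 (-1.02, -1.44 and -1.45 in clones 1 to 3, and -0.81 with the authors' processed values). The share of all named genes called lower was 7.43%. Without array weights 17 of them were called lower, and with 1 array left out at a time 21 to 28. Many promoters of this class hold the cell cycle genes homology region (CHR), TTTGAA, which the MuvB complex is known to bind. Examples from RefSeq (GRCm38.p6) are shown, with the element nearest the annotated start in capitals, because Cdk1, Prc1 and Ccnf were all called lower. They lie at chr10:69352913-69352952 on the minus strand for Cdk1, chr7:80294421-80294475 on the plus strand for Prc1 and chr17:24251410-24251448 on the minus strand for Ccnf.
Cdk1: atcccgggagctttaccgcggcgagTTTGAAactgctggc
Prc1: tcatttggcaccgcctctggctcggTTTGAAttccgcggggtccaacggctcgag
Ccnf: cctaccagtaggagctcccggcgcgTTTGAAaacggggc
The element ended 9 bases before the start of Cdk1, 24 before that of Prc1 and 8 before that of Ccnf. On either strand TTTGAA stood in the windows of 24 of 30 mitotic genes (80.0%), against 15.1% of all tested genes and 17.9% of all windows, and the CCAAT box, CCAAT, in 23 of 30 (76.7%) against 42.7% and 37.4%. Among the mitotic genes called lower, 18 of 22 held the first and 15 of 22 the second.

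Spc25 and Spc24 belong to the NDC80 complex, which ties kinetochores to microtubules. Spc25 had levels of 9.71, 9.47 and 9.29 at 6 h and 7.17, 6.43 and 6.47 at 18 h. The groups were wide apart, with a fall of 2.85 ± 0.14 (7.23-fold, adjusted p = 3.04e-08), and Spc24 fell by 2.22 ± 0.18. Mad2l1, of the spindle checkpoint, went from 9.42, 9.42 and 9.13 to 7.13, 5.69 and 6.34, a fall of 3.19 ± 0.29 in which clone 1 kept the highest 18 h value. The condensin subunit Ncaph fell from 10.35, 10.28 and 9.94 to 8.12, 7.62 and 6.91, by 2.61 ± 0.15 with no overlap. Tpx2, which activates Aurora A on the spindle, fell by 2.58 ± 0.16, and Foxm1, which drives transcription of mitotic genes, by 2.19 ± 0.19. Cdk1, the kinase that starts mitosis, fell by 1.49 ± 0.16, Prc1, which bundles the midzone of the spindle, by 1.33 ± 0.14 and Ccnf, cyclin F, by 1.49 ± 0.22. Of the 9 that did not pass, 3 were undetected on all 6 arrays, among them Ube2c and Hmmr with changes of -0.020 and -0.087.

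Some mitotic genes were no longer detected on any of the 3 arrays at 18 h. For these the fold is given as a lower bound, from the mean level at 6 h over the mean of, per array, the lowest level among detected probes or the gene's own level if higher. Cep55, which completes the cutting of the midbody between daughter cells, had levels of 8.32, 7.45 and 7.44 at 6 h and 4.84, 4.82 and 4.72 at 18 h. That is a fall of at least 4.34-fold (adjusted p = 1.38e-07). The bound was 4.75-fold for the mitotic kinase Pbk (adjusted p = 1.44e-07). Haus1, of the augmin complex that branches spindle microtubules, was lower by at least 4.54-fold (adjusted p = 9.13e-07) and Ndc80 by at least 2.77-fold (adjusted p = 1.10e-05). None of these 4 had overlapping groups. Among other genes with the largest falls, Psmc3ip and Fignl1, which act in homologous recombination, fell by 2.92 ± 0.20 and 2.79 ± 0.16, and the cohesin subunit Smc3 by 2.85 ± 0.31. Smc3 was detected in 1 clone of 3 at 18 h, so the size of its fall rests in part on values not above background.

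Of the G1 cyclins, their kinases and the E2F genes, 3 of 12 were called lower and 0 higher, against 7.43% and 4.96% of all named genes. Cyclin E2 (Ccne2), which activates CDK2 for entry into S phase, had levels of 7.75, 7.78 and 7.15 at 6 h and 5.31, 5.28 and 4.63 at 18 h, where it was undetected in every clone. The fall was at least 3.83-fold (adjusted p = 7.57e-07), and that of cyclin E1 (Ccne1) at least 2.18-fold (adjusted p = 1.08e-06). E2f1 went from 9.81, 9.30 and 9.07 to 9.06, 8.55 and 8.59 and fell by 0.70 ± 0.12 (adjusted p = 0.000486), and the groups did not overlap. Its call was lost without WT 6 h replicate 2, WT 18 h replicate 1 or WT 18 h replicate 2. The D cyclins, which bind CDK4 and CDK6, changed by 0.34 ± 0.14 (Ccnd1), 0.12 ± 0.14 (Ccnd2) and -0.20 ± 0.13 (Ccnd3), and none was called.

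Among the CDK inhibitors and pocket proteins 0 of 10 were called higher at 18 h and 3 were called lower (7.43% of all named genes were called lower). The 3 became 1 without WT 18 h replicate 2 or without weights. Rbl1 (p107), a pocket protein that is itself an E2F target, had levels of 10.10, 9.80 and 9.73 at 6 h and 7.99, 8.15 and 7.63 at 18 h and fell by 1.84 ± 0.15 (adjusted p = 1.76e-06) on its brightest probe. A second detected probe changed by -0.12 ± 0.14 and was not called, so the fall was seen on 1 probe of this gene. Cdkn1a (p21), the CDK inhibitor and p53 target, went from 12.32, 11.90 and 11.11 to 12.01, 10.32 and 9.07. All 3 clones fell, by unequal amounts, clone 1 at 18 h lay within the 6 h range, and the change was -1.41 ± 0.25 (adjusted p = 0.000854). That call was lost without WT 6 h replicate 2, WT 6 h replicate 3, WT 18 h replicate 2 or WT 18 h replicate 3 and without weights. Ccng2, an atypical cyclin linked to cell cycle arrest, fell by 1.38 ± 0.19 after a rise of 1.28 ± 0.18 in the first 6 h. Changes of the others that were not called were 0.019 ± 0.18 for Cdkn1b (p27), 0.37 ± 0.19 for Cdkn2a, 0.49 ± 0.22 for Cdkn2b, -0.66 ± 0.15 for Cdkn2c, -0.040 ± 0.13 for Cdkn2d, -0.0052 ± 0.15 for Rb1 and 0.46 ± 0.17 for Rbl2. Those are values of the brightest probe. Another probe of Cdkn2a was called higher (1.10 ± 0.19) and another of Cdkn2c lower (-1.25 ± 0.13), while further detected probes of both had the opposite sign and were not called.

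On the list of the ATF4 response and amino acid supply 5 of 24 measured genes were called lower and 0 higher, against 7.43% and 4.96% of all named genes, and the list's median of -0.07 was near 0. As background, the 5 called members make serine, carry its carbon into folates or make asparagine. Mthfd2, the mitochondrial folate enzyme of one-carbon metabolism, had levels of 10.31, 10.36 and 10.49 at 6 h and 7.73, 7.61 and 6.73 at 18 h. No 18 h value came near the 6 h values, and the fall was 2.94 ± 0.18 (7.67-fold, adjusted p = 1.38e-07). Phgdh, which takes the first step of serine synthesis, was undetected in all clones at 18 h, a fall of at least 1.93-fold (adjusted p = 1.96e-07). Psat1, which takes the next step, went from 11.58, 11.62 and 11.44 to 10.13, 10.04 and 9.85, a fall of 1.53 ± 0.14, and Shmt2, which splits serine in mitochondria, from 8.08, 8.35 and 8.11 to 6.19, 6.82 and 6.86, a fall of 1.52 ± 0.14. Neither had overlapping groups.

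The asparagine synthetase gene Asns went from 9.31, 8.90 and 9.92 to 7.74, 6.11 and 9.29, a fall of 2.18 ± 0.32 (adjusted p = 0.000161) in which clone 3 stayed high and the groups overlapped. Its call was lost without WT 18 h replicate 1 or WT 18 h replicate 2 and without array weights. Its promoter holds the amino acid response element through which ATF4 is known to act, shown here because it is the only match among the genes of this list called lower. It lies at chr6:7693210-7693257 (RefSeq GRCm38.p6, minus strand), and the capitals mark the match to TGATGNAA, where N is any base.
Asns: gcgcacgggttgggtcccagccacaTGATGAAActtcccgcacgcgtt
On either strand the element stood in 5 of 20 promoters of the list (25%), in 3.05% of all tested genes and in 3.97% of all windows. Atf4 itself had levels of 10.21, 10.26 and 10.10 at 6 h and 9.98, 10.15 and 10.30 at 18 h, with a change of -0.089 ± 0.15 that did not pass. Its other detected probes had changes of 0.60 and -0.76, also not called, so its direction depends on the probe. On the brightest probe it had fallen by 2.22 ± 0.14 in the first 6 h, and Mthfd2 by 1.48 ± 0.18, Phgdh by 1.36 ± 0.13, Shmt2 by 1.70 ± 0.14 and Asns by 1.89 ± 0.31, all called.

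Of 47 respiratory chain genes 9 were called lower and 0 higher (median -0.39), where 7.43% of all named genes were called lower, and 38 of the 47 changes were negative. Sdhd, which anchors complex II in the membrane, went from 9.42, 9.12 and 9.30 to 7.19, 6.94 and 7.32, a fall of 2.26 ± 0.24 (adjusted p = 1.50e-05) with groups well apart. The complex I subunit Ndufb5 fell by 1.66 ± 0.22 and Atp5b, the catalytic beta subunit of ATP synthase, by 0.61 ± 0.13. Of 30 proteasome genes 6 were called lower and 0 higher (median -0.32). Psmd14, the deubiquitinase of the lid, went from 9.28, 9.01 and 9.03 to 7.24, 6.74 and 6.90 and fell by 2.28 ± 0.21 (adjusted p = 4.01e-06), and the base ATPase Psmc2 fell by 1.72 ± 0.24. Both counts depended on the arrays. Without weights 0 respiratory chain genes and 1 proteasome gene were called lower. Without WT 18 h replicate 2 the counts were 1 and 2, without WT 18 h replicate 1 they were 2 and 3, and without WT 6 h replicate 2 they were 2 and 4. Without WT 0 h replicate 1, 2 or 3, WT 6 h replicate 3 or WT 18 h replicate 3 there were 4 to 5 respiratory chain genes.

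Ribosome biogenesis factors had fallen early. In the first 6 h 31 of 39 were called lower with a median of -1.25, where 5.39% of all named genes were called lower. Between 6 h and 18 h 6 were called lower and 2 higher with a median of -0.26. In that interval 7.43% of all named genes were called lower and 4.96% higher, so the 2 rises were near the share of all named genes. Of the late falls, Rrn3, which brings RNA polymerase I to its promoter, fell from 7.26, 7.22 and 7.01 to 5.41, 5.31 and 6.25, by 1.65 ± 0.21. Rrn3 was detected in 1 clone of 3 at 18 h, so the size of that fall rests in part on values not above background. Nucleolin (Ncl) fell by 0.79 ± 0.13. Nop14 and Polr1c, of the small subunit processome and of RNA polymerases I and III, fell by 1.65 ± 0.25 and 1.55 ± 0.27. Of the rises, Ubtf, the upstream binding factor of RNA polymerase I, went from 9.60, 9.65 and 9.53 to 10.32, 10.40 and 10.12, up by 0.71 ± 0.12, and Wdr43 rose by 0.72 ± 0.14. The 6 falls came down to 2 without WT 18 h replicate 1 and to 0 without WT 18 h replicate 2 or without weights. The 2 rises came down to 0 without WT 6 h replicate 2, WT 18 h replicate 1 or WT 18 h replicate 2 and to 1 without WT 18 h replicate 3. Cytosolic ribosomal protein genes had 3 of 49 called lower, Rps3a1 (-1.16 ± 0.15), Rpl38 (-1.47 ± 0.22) and Rpl14 (-1.10 ± 0.20), whose probes can also bind near-identical pseudogene copies (7.43% of all named genes were called lower). The 3 became 0 without WT 18 h replicate 2 or without weights, 1 without WT 18 h replicate 1, and 2 without WT 6 h replicate 2, WT 6 h replicate 3 or WT 18 h replicate 3. The glycolysis list had 0 of 20 called either way.

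Cholesterol synthesis was the largest group of related genes among the lists to go up. Of 20 measured genes 7 were called higher and 0 lower, with a median of 0.51 (0.15, 0.66 and 0.62 in clones 1 to 3, and 0.29 with the authors' processed values), where 4.96% of all named genes were called higher. Sc5d, which acts near the end of the pathway, had levels of 5.98, 5.78 and 5.67 at 6 h and 6.93, 7.37 and 7.03 at 18 h. Every 18 h value lay above every 6 h value, and the rise was 1.40 ± 0.14 (2.65-fold, adjusted p = 7.43e-06). Sc5d was detected in all 3 clones at 6 h, but its levels then were near the lowest detected levels of those arrays (5.57 to 5.65). With the authors' processed values the rise of Sc5d was 0.28 and still called. Mvd, which makes isopentenyl pyrophosphate, went from 7.46, 7.31 and 7.05 to 8.27, 8.42 and 8.06, a rise of 1.08 ± 0.16 that became 0.42 and was not called with those values. Cyp51, the lanosterol demethylase, went from 10.22, 10.11 and 10.10 to 10.83, 11.35 and 11.01 and rose by 1.02 ± 0.15. In neither did the groups overlap. Msmo1 rose by 0.93 ± 0.17 and Hsd17b7 by 0.87 ± 0.16, both of which act in the removal of methyl groups from sterols, and Srebf2, the transcription factor that drives the pathway, by 0.67 ± 0.13.

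Hmgcs1, which makes HMG-CoA, had levels of 12.53, 12.35 and 12.15 at 6 h and 13.18, 13.29 and 12.79 at 18 h and rose by 0.79 ± 0.14 (adjusted p = 0.000683). It is the 1 gene of 16 on the list whose promoter window (RefSeq GRCm38.p6, chr13:119690189-119690247, plus strand) held the sterol regulatory element letters TCACNCCAC on either strand, shown in capitals.
Hmgcs1: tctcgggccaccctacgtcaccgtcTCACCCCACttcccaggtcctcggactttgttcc
The same letters stood in 1.5% of all tested genes and 1.24% of all windows. Of the genes not called, Mvk changed by 0.72 ± 0.16, Lss by 0.49 ± 0.13, Sqle by 0.59 ± 0.16, Fdft1, undetected on all 6 arrays, by -0.051 ± 0.17 and Ebp by -0.47 ± 0.16. Between 0 h and 6 h the list had a median of -0.75 with 10 genes called lower, where 5.39% of all named genes were called lower. Abcg1, a cholesterol exporter and LXR target, fell by 1.30 ± 0.16, and Fasn, fatty acid synthase, by 0.99 ± 0.19. The count of 7 fell to 1 without WT 18 h replicate 2, to 3 without WT 18 h replicate 3 or WT 6 h replicate 2, to 4 without WT 6 h replicate 3 and to 2 without weights. Over those fits the median of the list stayed between 0.40 and 0.50.

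**Figure D3:**
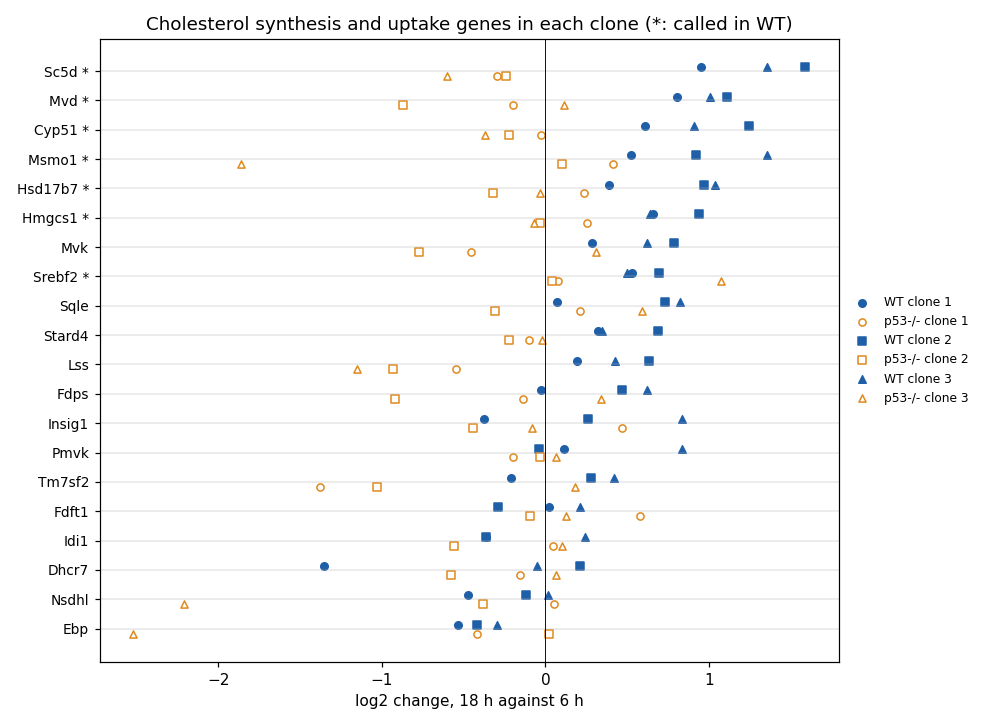
Log2 change between 6 h and 18 h (horizontal axis) of each of the 20 measured cholesterol genes (vertical axis, ordered by the fitted WT change), 1 point per clone, blue for WT and open orange for p53-/-. Asterisks mark the 7 genes called higher in WT, and for Sc5d, Cyp51, Mvd, Msmo1, Hsd17b7, Hmgcs1 and Srebf2 the 3 WT points lie to the right of 0.

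Of the genes on the JAK-STAT and IL-3 response list 1 of 25 was called higher and 2 lower after 6 h, a share near the 12.4% of all named genes called either way. In the first 6 h 15 had been called lower, where 5.39% of all named genes were called lower. Cish, a STAT5 target that damps cytokine signaling, had fallen by 2.17 ± 0.11 by 6 h and had levels of 11.39, 11.59 and 11.51 at 6 h and 11.65, 11.73 and 11.64 at 18 h, a change of 0.16 ± 0.11 (adjusted p = 0.320). Socs1 changed by -0.33 ± 0.14 and Socs3 by 0.012 ± 0.39 in the same interval, and none of the 3 was called. Il3ra, the alpha chain of the IL-3 receptor, went from 11.999, 12.18 and 12.16 to 12.89, 12.97 and 12.88, a rise of 0.81 ± 0.12 (adjusted p = 0.000142). The rise was alike in the 3 clones and far larger than the spread between them, but its call was lost without WT 18 h replicate 2. The beta chain Csf2rb changed by 0.11 ± 0.22 and did not pass.

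Of the immediate early genes 3 of 18 were called lower and 0 higher, where 7.43% of all named genes were called lower. Egr1, a zinc finger factor downstream of ERK, had a mean level of 13.50 at 0 h, levels of 11.97, 11.33 and 9.996 at 6 h and 8.96, 8.20 and 8.48 at 18 h, and fell by 2.73 ± 0.32 in the late interval (adjusted p = 3.05e-05). Fos, of the AP-1 factor, went from 7.91, 8.54 and 7.65 to 5.55, 5.76 and 7.16, a fall of 2.17 ± 0.26 that was larger in clones 1 and 2 than in clone 3. Without WT 18 h replicate 1 or WT 18 h replicate 2, Fos was not called. The related factor Egr3 fell by 0.83 ± 0.14, and its call was lost without WT 6 h replicate 3, WT 18 h replicate 1 or WT 18 h replicate 2. The list thus had 1 gene called lower without either of those 18 h arrays. Id1, which blocks basic helix-loop-helix factors, went from 10.51, 10.38 and 10.66 to 11.37, 11.15 and 11.37 and rose by 0.77 ± 0.15.

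Cell death genes of the BCL-2 family mostly did not pass. Of 7 BH3-only genes 1 was called higher, where 4.96% of all named genes were called higher. Bmf, a BH3-only protein, had levels of 5.69, 6.37 and 7.31 at 6 h and 6.59, 8.09 and 8.19 at 18 h, so that it rose in every clone although the clones differ and the groups overlap, by 1.33 ± 0.22 (adjusted p = 0.000469). That call was lost without WT 6 h replicate 2, WT 18 h replicate 2 or WT 18 h replicate 3 and without array weights. Bbc3 (Puma), a p53 target, had levels of 6.44, 6.12 and 6.19 and 6.61, 6.35 and 6.71 and changed by 0.20 ± 0.18, Pmaip1 (Noxa) by -0.25 ± 0.15, Bcl2l11 (Bim) by -0.47 ± 0.27, Bid by 0.44 ± 0.14 and Bad by 0.21 ± 0.20, while Bik, at -0.046, was undetected on all 6 arrays. None of the 7 survival and effector genes was called by its brightest probe. Mcl1 changed by -0.22 ± 0.16, Bcl2l1 (Bcl-xL) by 0.018 ± 0.13, Bcl2l2 by 0.19 ± 0.12, Bcl2a1b (A1) by 0.16 ± 0.14, and the effectors Bak1 and Bok by 0.063 ± 0.19 and -0.48 ± 0.21. Bcl2 had a change of 0.48 ± 0.16 on its brightest probe, which was not called, and -0.90 and -0.97 on 2 other probes that were called lower, so its direction depends on the probe. The caspase, APAF1 and IAP list, of 14 genes, had Casp8 at -0.47 ± 0.13 as the smallest p and none called.

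On the p53 target list 1 gene was called higher and 2 lower of 29, a share near the 12.4% of all named genes called either way. All 3 calls were lost without WT 6 h replicate 2, WT 18 h replicate 2 or WT 18 h replicate 3 and without weights. Aen, a nuclease induced by p53, went from 6.36, 6.10 and 5.79 to 7.01, 6.95 and 6.58, a rise of 0.75 ± 0.13 after a fall of 1.67 ± 0.13 in the first 6 h. Cdkn1a and Rrm2b, a ribonucleotide reductase subunit, were the 2 called lower. Rrm2b was detected in 1 clone of 3 at 6 h, so its change of -1.15 ± 0.23 rests mostly on values not above background, and its call was lost in 11 of the 18 fits that left out an array. Ripk3, a kinase of necroptosis, fell from 8.58, 8.40 and 9.30 to 7.96, 7.38 and 8.59, by 0.85 ± 0.14 in all 3 clones though the groups overlapped.

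Autophagy genes had 3 of 23 called higher and 1 lower (median 0.21), where 4.96% of all named genes were called higher and 7.43% lower. With the authors' processed values 6 were called higher and the median was 0.047, and 7 were called higher with no background correction or among probes detected on at least 3 of the 6 arrays. Gabarapl1, an ATG8 protein of the autophagosome membrane, went from 9.83, 10.24 and 10.18 to 10.86, 11.25 and 11.17, a rise of 1.03 ± 0.12 (adjusted p = 2.38e-05) with no overlap. Atg9a, the membrane protein that seeds the autophagosome, rose by 0.93 ± 0.15 and Atg7, which activates the ATG8 proteins, by 0.68 ± 0.14. Map1lc3b, another gene of the ATG8 family, fell by 0.73 ± 0.15. The 3 rises became 1 without WT 18 h replicate 1 or WT 18 h replicate 2 or without weights. The call of Map1lc3b was lost without any of the WT arrays but WT 6 h replicate 1, and without p53-/- 18 h replicate 2.

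Of 24 interferon response genes 3 were called higher and 1 lower, where 4.96% and 7.43% of all named genes were, with Dhx58, a sensor of viral RNA, up by 1.12 ± 0.15, Stat2, of the interferon signaling complex, by 0.77 ± 0.15, Irf7 by 0.76 ± 0.16, and the mitochondrial kinase Cmpk2 down (-1.01 ± 0.14). The 3 rises became 1 without WT 0 h replicate 1, WT 0 h replicate 2, WT 6 h replicate 2, WT 6 h replicate 3, WT 18 h replicate 2 or WT 18 h replicate 3 and 0 without weights, and the call of Irf7 was lost in 13 of the 18 fits that left out an array. Tapbp, which loads peptides onto MHC class I, went from 9.31, 9.45 and 9.46 to 9.67, 10.21 and 10.32, a rise of 0.70 ± 0.14, the 1 call among 11 antigen presentation genes, lost in 11 of those fits. The class I gene H2-D1 had a change of 0.71 ± 0.15 and was not called. Of 16 NF-kB targets 1 was called lower, Nfkb2, which encodes a subunit of the factor (-0.85 ± 0.17), a call lost in 13 of them. Lysosomal genes had 2 of 33 called higher, Hexa (0.87 ± 0.13) and Psap (0.59 ± 0.12), and Gusb lower (-0.78 ± 0.13). None of these 3 was called without WT 6 h replicate 2 or WT 18 h replicate 2.

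Lineage genes changed singly. Among progenitor and myeloid regulators 4 of 18 were called higher and 0 lower, where 4.96% of all named genes were called higher. Ikzf1, the Ikaros factor, went from 9.70, 9.47 and 9.19 to 10.70, 10.59 and 10.03, up by 1.04 ± 0.14. Cebpa, which directs granulocyte and monocyte fate, rose by 0.95 ± 0.17 and Spi1 (PU.1) by 0.68 ± 0.13, and Id1 was the other. The count of 4 fell to 0 without WT 18 h replicate 2 or without weights, to 1 without WT 18 h replicate 1, WT 6 h replicate 2 or WT 6 h replicate 3, and to 2 without WT 18 h replicate 3, WT 0 h replicate 2 or WT 0 h replicate 3. Cebpe, a factor of late granulocyte differentiation, had levels of 10.11, 10.96 and 12.58 at 6 h and 11.11, 12.20 and 13.54 at 18 h. Clone 3 was the highest and clone 1 the lowest at both times, the groups overlapped, and every clone rose, by 1.13 ± 0.13 in the fit (adjusted p = 2.17e-05).

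Granule and surface genes went both ways. Of 19 neutrophil granule genes 1 was called higher and 1 lower, and 12 of the 19 changes were positive. Of 13 mast cell and basophil genes 1 was called higher and 1 lower, and of 20 erythroid and megakaryocyte genes 0 and 2. Over all named genes 4.96% were called higher and 7.43% lower. The falls of Ctsg, Mcpt8 and Pf4 given here were the largest of their lists. Ctsg, cathepsin G, went from 12.52, 13.14 and 14.06 to 11.59, 12.23 and 13.65, a fall of 0.77 ± 0.13 in all 3 clones. The basophil protease Mcpt8 went from 9.98, 9.61 and 7.37 to 7.52, 7.30 and 6.17 and fell by 2.16 ± 0.27, least in clone 3 where it was low at 6 h, while Cd200r3, a receptor of basophils and mast cells, rose by 1.05 ± 0.12. Pf4, platelet factor 4, went from 9.66, 9.07 and 10.76 to 6.45, 6.70 and 8.91, a fall of 2.55 ± 0.31 without overlap. Across the whole marker lists the mean level per array was 7.76 to 10.8 at 6 h and 7.46 to 11.4 at 18 h for 19 neutrophil granule genes, 10.8 to 11.5 and 10.6 to 11.4 for 13 mast cell and basophil genes, and 7.54 to 8.50 and 7.34 to 8.37 for 20 erythroid and megakaryocyte genes. These ranges do not use the pairing by clone, so their overlap does not show whether a list changed. Within clones 1, 2 and 3 the median change of the neutrophil list was -0.24, 0.11 and 0.63. It was -0.0090, -0.14 and -0.26 for the mast cell and basophil list and -0.017, -0.13 and 0.052 for the erythroid and megakaryocyte list.

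The genes with the largest fitted rises were of varied function. Garnl3, whose protein carries a Rap GTPase-activating domain, went from 6.73, 4.97 and 4.93 to 9.12, 7.42 and 7.01, a rise of 2.38 ± 0.19 (adjusted p = 1.21e-06). Clone 1 was highest at both times. At 6 h the gene was detected in clone 1 alone, so the size of the rise rests partly on values not above background, and with the authors' processed values it was 0.55 and not called. Itgb5, the integrin beta 5 chain, went from 7.60, 7.33 and 8.59 to 9.74, 10.05 and 10.14 and rose by 2.24 ± 0.20 (adjusted p = 3.07e-06). Zbtb20, a zinc finger repressor, went from 7.39, 7.33 and 7.57 to 9.56, 9.07 and 8.59 and rose by 1.71 ± 0.19. The groups of all 3 were apart. Mipol1 rose by 1.82 ± 0.15, the molybdenum cofactor sulfurase Mocos by 1.56 ± 0.18 and Mtmr11, of the myotubularin family, by 1.58 ± 0.15. The secreted protease gene Adamts10 was undetected on all 6 h arrays and detected on all 18 h arrays, and was at least 1.81-fold higher at 18 h (adjusted p = 2.04e-05). Enc1, an actin-binding protein, rose by 1.62 ± 0.23 and Rflnb, a regulator of filamin, by 1.69 ± 0.23, in both of which the groups overlapped and the clones already differed at 6 h. Hcst, a signaling adaptor of natural killer and myeloid cells, went from 12.71, 12.71 and 12.70 to 13.75, 13.99 and 13.74, a rise of 1.17 ± 0.20, and Idh1, the cytosolic isocitrate dehydrogenase, rose by 0.84 ± 0.17. Calm2, a calmodulin gene, went from 8.34, 7.77 and 8.44 to 6.69, 6.49 and 7.48, a fall of 1.48 ± 0.26. Srgn, the granule proteoglycan serglycin, went from 13.80, 13.80 and 13.85 to 12.78, 12.76 and 13.08, a fall of 0.99 ± 0.16.

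Few genes were called among chaperones and tRNA synthetases, all of them lower, where 7.43% of all named genes were called lower. Hspd1, the mitochondrial chaperonin, went from 11.19, 11.12 and 11.02 to 9.80, 9.84 and 9.74, a fall of 1.39 ± 0.20 (adjusted p = 0.000185) without overlap, and Hsph1 fell by 0.70 ± 0.13, the 2 calls among 7 cytosolic and mitochondrial heat shock genes. Dnajb9, a chaperone of the endoplasmic reticulum, was undetected at 18 h and was at least 1.61-fold lower, the 1 call of 18 on its list, where Hspa5 (BiP) had a change of -0.77 ± 0.19 that did not pass. Vars, the valine tRNA synthetase, fell by 0.93 ± 0.16, the 1 call of 18, and for both lists 1 of 18 is near the share of all named genes. Without array weights 0 of the 7 heat shock genes were called. Mxd3, of the MAX network, fell from 7.50, 7.35 and 7.47 to 6.42, 5.81 and 5.65, by 1.40 ± 0.19, the 1 call of 6, with groups apart.

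Of the 44 gene lists examined, 9 held no gene called in the late interval. These were ERK feedback genes (12 measured), PI3K, AKT and mTOR signaling (17), BCL-2 survival and effector genes (7), caspases, APAF1 and IAPs (14), glycolysis (20), cytokines and chemokines (23), CLK and SRPK kinases (5), lymphoid markers (6) and fibroblast and endothelial markers (7). Lists with 1 or 2 calls not yet described were those of FOXO factors and targets (1 higher and 1 lower of 19), NRF2 targets (1 higher of 12), heme synthesis (1 lower of 9) and monocyte and macrophage markers (1 higher and 1 lower of 11). Lists from which only single genes were given above were IL-3 receptor and proximal signaling (1 higher of 15), cholesterol efflux (2 lower of 6) and fatty acid synthesis (1 lower of 10). Over all named genes 4.96% were called higher and 7.43% lower. Some members of the 9 lists had sizeable changes that missed the threshold on B. Dusp5 and Dusp6, phosphatases that act on ERK, had changes of 1.23 ± 0.29 (adjusted p = 0.00498) and -0.87 ± 0.22 (adjusted p = 0.00739). Ddit4, an inhibitor of mTORC1, went from 9.45, 9.62 and 9.47 at 6 h to 8.58, 8.40 and 8.28 at 18 h, a change of -1.20 ± 0.27 (adjusted p = 0.00360). Il6 had a change of -0.95 ± 0.23 and Slc2a1, the glucose transporter, of -0.59 ± 0.19.

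**Figure D4:**
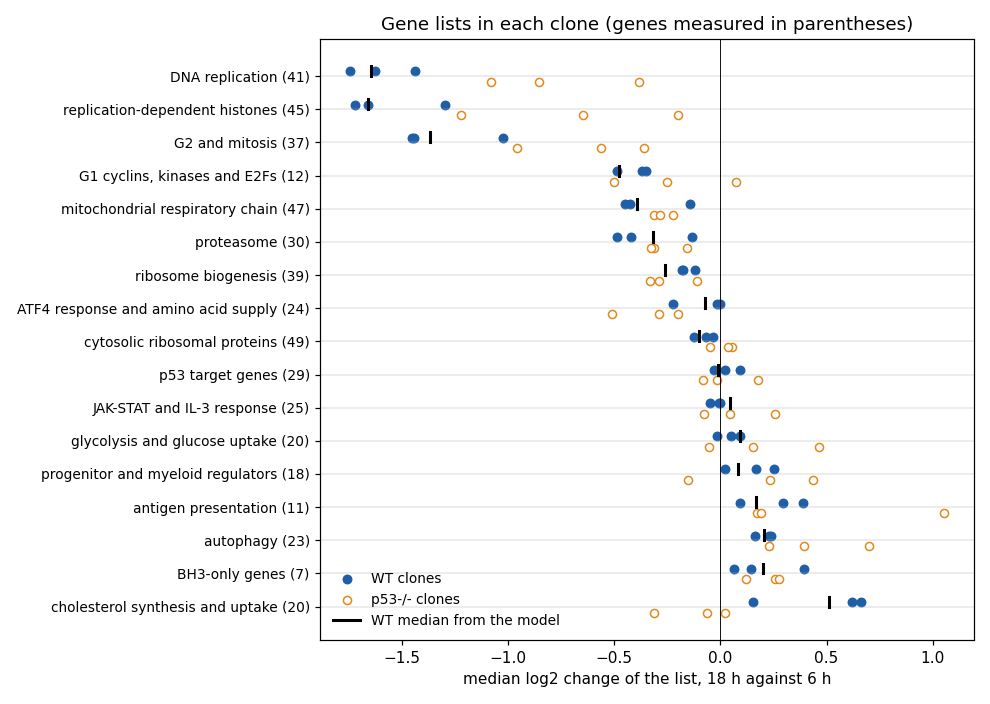
Median log2 change of 17 gene lists between 6 h and 18 h (horizontal axis), 1 point per clone, filled blue for WT and open orange for p53-/-, with a black bar at the median of the fitted WT changes and the number of genes measured in parentheses. DNA replication, histone and mitotic genes lie between -1.74 and -1.02 in the WT clones, cholesterol genes between 0.15 and 0.66, and most other lists near 0.

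The same interval in p53-/- cells was measured on other arrays, and the difference between the genotypes was tested in the same model. In p53-/- cells 319 probes were called higher (1.49%) and 425 lower (1.98%), 3.47% of those tested in all. Over named genes by their brightest probe the shares were 1.92% higher and 2.04% lower, or 3.96%. Of the 1159 rises in WT cells 90 were also called higher in p53-/- cells, which is 7.77% of the WT rises and 28.2% of the p53-/- rises, and 2 were called lower. Of the 1401 falls 245 were also called lower, 17.5% of the WT falls and 57.6% of the p53-/- falls, and 4 were called higher. The median p53-/- change was 0.20 over the probes called higher in WT and -0.38 over those called lower. The WT change exceeded the p53-/- change, as signed values, at 290 probes (1.35%) and was below it at 387 (1.81%), or 3.16% in all, and at 0.92% and 2.01% of named genes, or 2.93%.

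Some replication and mitotic genes were also called lower in p53-/- cells. Of the 41 replication genes 20 were called lower there, with a median of -0.91, and for 7 the WT fall was larger by the test of the difference. Of the 37 mitotic genes 10 were called lower, with a median of -0.71, and for 6 the WT fall was larger. Uhrf1 had levels of 11.35, 10.96 and 11.23 at 6 h and 9.88, 9.45 and 8.49 at 18 h in the p53-/- clones, a fall of 1.52 ± 0.17. The difference, as the WT change minus the p53-/- change, was -1.82 ± 0.22 (adjusted p = 0.00211), and that of Tk1 was -1.86 ± 0.23. For Spc25 it was -1.78 ± 0.23, for Mad2l1 -2.38 ± 0.45 and for Mthfd2 -1.65 ± 0.29.

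The median of the fitted changes of the cholesterol genes was positive in WT cells and negative in p53-/- cells. In p53-/- clones 1, 2 and 3 the median was -0.064, -0.31 and 0.023, so the clones did not share a sign. In p53-/- cells 0 of 20 were called higher and 2 lower, with a median of -0.20, and the WT change was higher by the test of the difference for 5 genes. Sc5d had p53-/- levels of 6.26, 6.09 and 5.80 at 6 h and 5.96, 5.85 and 5.19 at 18 h, a change that was not called. At 18 h it was detected in 2 of these 3 clones. The value of clone 3 lay below the lowest detected level of its array (6.11), so the change in that clone has no exact size. The difference of Sc5d was 1.74 ± 0.22 (adjusted p = 0.00230). The other 4 were Mvd (1.60 ± 0.26), Mvk (1.31 ± 0.26), Cyp51 (1.25 ± 0.23) and Lss (1.23 ± 0.21).

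Among genes also called in WT, Tbc1d19 and Nup210 had small p-values for the difference. Tbc1d19, which carries a Rab GTPase-activating domain, had levels of 8.16, 7.80 and 7.16 at 6 h and 6.82, 6.09 and 5.95 at 18 h in WT and 6.42, 6.22 and 6.02 and 7.25, 7.15 and 6.06 in p53-/- cells. It fell in WT, rose in p53-/- cells and had a difference of -2.45 ± 0.24 (adjusted p = 0.000893). Nup210, a nuclear pore membrane protein, went from 10.67, 10.74 and 10.75 to 8.34, 7.98 and 7.80 in WT cells but from 11.70, 11.86 and 11.43 to 11.23, 11.22 and 12.14 in p53-/- cells, a difference of -2.26 ± 0.23 (adjusted p = 0.000893). The WT groups were wide apart and the p53-/- groups overlapped. Pdilt, a member of the protein disulfide isomerase family, fell by 1.68 ± 0.18 in WT cells and differed by -2.22 ± 0.28.

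This comparison between genotypes was the least secure. The 18 h array of the third p53-/- clone was set apart by a weight of 0.0639 and 27.0% of probes detected, it was kept in the fit, and without it 216 probes were called higher and 439 lower in the difference. Without array weights 4 and 7 were called, and of the replication, mitotic and cholesterol genes 1, 0 and 1. Leaving out p53-/- 18 h replicate 1 or p53-/- 18 h replicate 2 left 0 in both directions in limma, with 1624 and 1777 probes at an unadjusted p under 0.05, and the median difference was then -0.84 to -0.80 over the replication list, -0.60 to -0.47 over the mitotic list and 0.71 to 0.73 over the cholesterol list, against -0.71, -0.73 and 0.73 with all arrays. The counts were 48 and 113 without WT 18 h replicate 2, 131 and 209 without WT 18 h replicate 1, 56 and 136 without p53-/- 6 h replicate 1, and 84 and 146 without p53-/- 0 h replicate 2. The rises were 134 without WT 6 h replicate 2 and 172 without p53-/- 6 h replicate 3, and the falls 192 without p53-/- 6 h replicate 2. The p53-/- change itself gave 0 rises and 1 fall without p53-/- 18 h replicate 1 and 0 of each without p53-/- 18 h replicate 2 in limma, with 1807 and 1854 probes at an unadjusted p under 0.05. It gave 67 rises and 153 falls without p53-/- 6 h replicate 1, 170 and 225 without p53-/- 6 h replicate 2, 163 and 235 without p53-/- 6 h replicate 3, and 96 and 177 without p53-/- 0 h replicate 2. With median scaling 59.9% of 284 calls were higher, against 42.8% of 677.

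**Figure D5:**
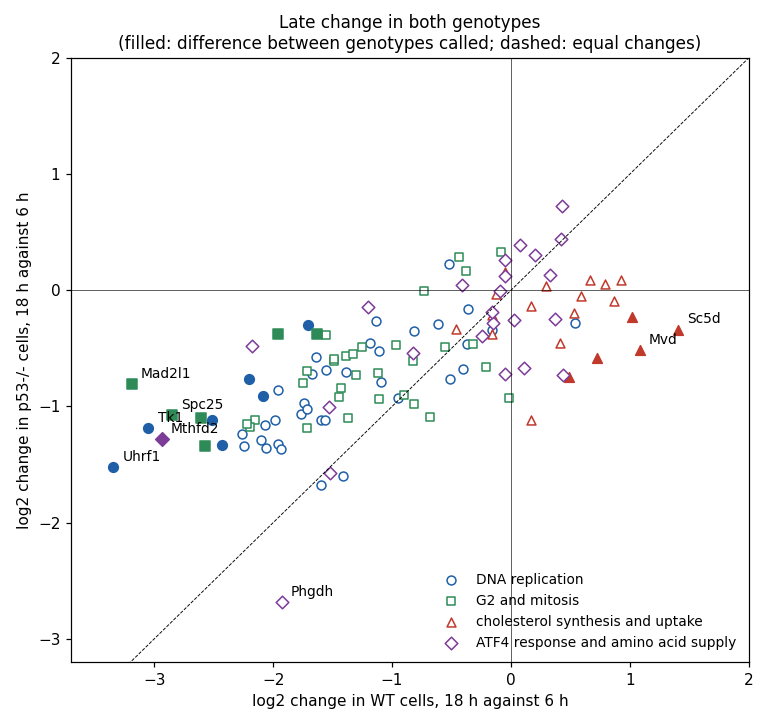
Log2 change between 6 h and 18 h in p53-/- cells (vertical axis) against that in WT cells (horizontal axis) for the measured genes of 4 lists, 1 symbol per gene. Filled symbols mark genes whose difference between genotypes was called (7 replication, 6 mitotic and 5 cholesterol genes among them), and the dashed line marks equal changes, above which most replication and mitotic genes lie.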

How the data were processed

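RNA of 18 samples was hybridised to Illumina mouse bead arrays, 3 clones of each genotype at 0, 6 and 18 h, and per the labels each array gives a value and a detection score for every probe. The deposited intensity is the bead summary of each probe with no normalization, and the deposited detection column is a fraction equal to 1 minus the detection p-value. A second table deposited by the authors holds processed values on a log2 scale, made with lumi (version not given in the sources used here). The authors' methods give normexp background correction, quantile normalization and log2 transformation, but whether this table was made that way was not settled, and it served only as an alternative. The authors left an array out as an outlier without naming it in the sources used here, and all 18 were kept here and weighted. Slide and scan batch are not given in the sources used here.

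Background was corrected with normexp from the detection p-values (limma 3.58.1, R 4.3.3), with an offset of 16, and arrays were quantile normalized and put on the log2 scale. The 21413 of 46632 probes tested had a detection p-value below 0.01 on 1 or more of the 18 arrays. The model had the 6 groups, clone as a block within genotype and array weights, with empirical Bayes moderation and Benjamini-Hochberg adjustment over all tested probes. A gene stands for its brightest probe. No array pair held identical values. Replicate numbers name clones, so they pair the samples. The deviations of same-numbered WT arrays from their group means correlated at 0.452 to 0.709 over probes, and those of differently numbered arrays at -0.557 to 0.0934. The script was tested on simulated data.

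The text names the largest changes that all clones shared, the called list members with the smallest p (or, where few were called, the members with the smallest p), genes the study names, genes with the smallest p for the genotype difference, all BH3-only, BCL-2 and CDK inhibitor genes, and the highest-level called genes. Of the 161 genes with a change in the text 129 fall under that rule, and the other 32 are further list members chosen after their values were seen. The members and lists were chosen with earlier results of these data known. Columns of the authors' own comparisons were not used. Promoter sequences came from a RefSeq table (GRCm38.p6) and figures from Python 3.11.15 with matplotlib 3.10.9. Alternatives changed the block, background, scaling, detection filter, weights, samples, threshold and each array in turn.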

Additional observations from a re-analysis of the deposited data

Results flagged for a closer look

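The change between 6 h and 18 h differed between WT and p53-/- cells, by the test of the difference itself, at 290 probes whose change was higher in WT cells and 387 whose change was lower. For each gene below the value is the WT change minus the p53-/- change on the log2 scale, and every one had an adjusted p of 0.1 or lower with a positive B in limma. In all 27 refits that kept both genotypes each of these differences kept its sign, and the number of refits in which it was called ran from 4 for Psmc3ip to 25 for Tk1, Nup210 and Sc5d. Refits that changed only the threshold or the probes adjusted over keep the fitted values, so no sign could change in them. Sizes varied more, from -2.71 to -0.17 for Mad2l1, -3.19 to -0.64 for Smc3 and -2.70 to -0.54 for Haus1. For Nup210 (-2.91 to -1.37) and Cyp51 (1.02 to 1.40) they varied less. In the refits without p53-/- 18 h replicate 1 or p53-/- 18 h replicate 2 no difference was called at all.

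Among replication and recombination genes the differences were -1.82 for Uhrf1, -1.86 for Tk1, -1.40 for Cdc7, -1.11 for Rrm2, -1.44 for Psmc3ip and -1.52 for Fignl1. Among genes of mitosis and chromosome structure they were -2.85 for Smc3, -2.52 for Haus1, -2.38 for Mad2l1, -2.01 for Cep55, -1.78 for Spc25, -1.58 for Ndc80, -1.51 for Ncaph, -1.37 for Pbk and -1.23 for Tpx2. Among sterol genes they were 1.74 for Sc5d, 1.60 for Mvd, 1.31 for Mvk, 1.25 for Cyp51, 1.23 for Lss and -1.18 for Abcg1.

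Other genes whose WT change was the lower were Tbc1d19 (-2.45), Nup210 (-2.26), Pdilt (-2.22), Fos (-2.13), Sdhd (-1.99), Psmd14 (-1.82), Mthfd2 (-1.65), Rrn3 (-1.58), Map1lc3b (-1.18), Dnajb9 (-1.17), Rps3a1 (-1.16) and Cmpk2 (-1.06). Those whose WT change was the higher were Rflnb (1.80), Garnl3 (1.73), Adamts10 (1.53), Mtmr11 (1.05), Atg7 (0.98) and Cebpe (0.98). Of these, Cep55, Haus1, Ndc80 and Pbk were undetected on all 3 WT 18 h arrays, Fos on all 6 p53-/- arrays of the 2 times, Dnajb9 on those 6 and the WT 18 h arrays, and Adamts10 on those 6 and the WT 6 h arrays. The differences of these 7 genes rest in part on values not above background and have no exact size. The same limit holds for Smc3 and Rrn3, detected on 1 of the 3 WT 18 h arrays. It also holds for Garnl3, detected on 1 of the 3 WT 6 h arrays, and Rflnb, on 1 of the 3 p53-/- 18 h arrays. Cmpk2, Mad2l1, Psmd14, Sc5d, Sdhd and Tbc1d19 were each detected on 2 of the 3 p53-/- 18 h arrays. The gap test for a single stray value needs 4 or more samples in a group and was not applied to these groups of 3.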

How the results depend on the processing

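Without the replicate block of clones the WT counts were 658 higher and 1060 lower, of which 601 and 1021 were also called with the block, the counts for the genotype difference 84 and 187, and those of p53-/- cells 95 and 219. The 110 called genes named in the report kept their direction under every alternative that tested them, and 37 of them were called with the block but not without it. With detection on at least 3 of the 6 arrays 109 of them were tested. A change of the threshold or of the adjustment alone cannot alter a direction. Without array weights the counts were 230 and 440 in WT, 4 and 7 for the difference and 161 and 160 in p53-/- cells. With an adjusted p of 0.05 and no condition on B they were 3559 and 3069, 1153 and 1090, and 887 and 932. The 6 WT arrays alone gave 460 and 911. With no detection filter the WT falls numbered 898 and the difference 166 and 193. Median scaling gave 170 and 114 for the difference and 38 and 156 in p53-/- cells. Without background correction the difference had 440 rises and p53-/- cells 555, the authors' processed values gave 521 p53-/- rises, and detection on at least 3 of the 6 arrays gave 159.

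With 1 array left out at a time the WT counts ran from 175 to 1208 higher and from 507 to 1467 lower. Those of the difference ran from 0 to 393 and from 0 to 466, and those of p53-/- cells from 0 to 419 and from 0 to 484. The share of WT calls that were higher was 45.3%, against 34.3% without weights and 33.6% with the 6 WT arrays alone. For p53-/- cells it was 42.9%, against 19.6% with median scaling, 30.3% without the block and 55.0% with the authors' values, and for the difference 42.8%, against 59.9% with median scaling and 31.0% without the block. The cause of these shifts was not tested.

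Other probes of a few genes had the opposite sign, at -0.22 for Atg9a, 0.27 for Egr3, 0.031 for Rbl1, 0.039 for Rpl38 and -0.90 and -0.97 for Bcl2, of which only those of Bcl2 were called. Detected probes of genes that were not called also had opposite signs, at 0.60 for Atf4, -0.45 for Bcl2, -0.31 for Cdkn2a, 0.73 for Cdkn2c, 0.52 for Cdkn2d, -0.76 and -0.36 for Csf2rb, 0.49 for Dusp6, 0.14 for Socs1 and -0.18 for Bcl2l1. Of the 110 called genes 68 had changes over 1.5 times smaller with the authors' processed values and 42 with no background correction. Folds of genes undetected at 1 time are bounds, and leaving out 18 h p53-/- replicate 1 or 2 took away nearly all p53-/- calls (0 higher and at most 1 lower).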
